A study of Taeniopygia guttata with 48 samples.

Results

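The genes described here are the 200 steadiest genes of moderate expression in 2 regions of the adult zebra finch brain. They were chosen from 17475 genes in 2 steps. The first kept the 6635 genes with a mean of 20 to 300 FPKM over 24 RNA libraries, FPKM being fragments per kilobase of transcript scaled to the mapped fragments of a library. The second took the 200 of these with the smallest standard deviation (SD) of log2(FPKM + 1) over 23 libraries, with female testosterone hypothalamus replicate 3 left out. The choice therefore fixed that these genes differ little among the 23 libraries, and their spread and group differences there are given as a description.

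The birds had been exposed to testosterone before hatching and were sampled as adults. A dose of 500 pg testosterone, carried in 5 µl peanut oil, went into the egg on its day of laying, and control eggs got the same volume of oil without hormone. The 8 groups of 3 libraries were, in hypothalamus, males given testosterone, males given oil, females given testosterone and females given oil, and the same 4 in the nucleus taenia of the amygdala. Tissue came from 1 mm punches of frozen brain, so a punch can hold several cell types. Nothing in the labels ties each library to a bird of its own.

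Genes needed by nearly every cell, such as those for protein synthesis, protein turnover and energy supply, are often called housekeeping genes, and steady ones among them serve as references against which other transcripts are scaled. The hypothalamus governs hormone release, feeding and reproduction, and the nucleus taenia, in the amygdala of birds, is known for a role in social and sexual behaviour. FPKM is a relative unit: a gene's value depends on everything else in the library. The files give Ensembl-type identifiers without gene symbols, and 0 of them matched the gene table at hand, so no function or chromosome is assigned to any of the 200, and the makeup of the punches was not checked with cell type markers.

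Across the 23 libraries the summed FPKM ran from 808096 to 1158300, and it was 1476513 in female testosterone hypothalamus replicate 3. Depth in reads is unknown. Rough relative depths, from the commonest ratios among values under 0.2 FPKM, ran from 0.598 to 1.39 times the median library, and the left-out library was at 0.785, with 3 libraries shallower. On the steady genes, replicate 3 of female testosterone hypothalamus, the left-out library, stood far apart, and replicate 2 of male testosterone nucleus taenia stood apart to a smaller degree. Results that rest on the left-out library are given with and without it. Part of any difference between punches could be fewer cells of a type or less RNA per cell, which cannot be told apart in such samples.

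Within the 23 libraries the 200 genes held a nearly fixed level. Their SD on the log2 scale ran from 0.099 to 0.173 with a median of 0.153, and the other 6435 genes of the same level had a median SD of 0.392. The highest library stood 1.51-fold above the lowest for the median steady gene, with 1.28 to 1.76-fold as the range over the 200, on the log2(FPKM + 1) scale. For the other genes of this level that fold had a median of 2.93. None of the 200 was listed at 0 FPKM in any of the 24 libraries, whereas 151 of the other 6435 were listed at 0 in at least 1. Over the 23 libraries alone that count was 114, and 77 were listed at 0 in the left-out library.

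The steady genes were spread over the levels of the window. Mean expression of the steady genes ran from 20.2 to 284 FPKM with a median of 51.9, and that of the other genes had a median of 49.2 FPKM. The median SD was 0.156 for the 90 steady genes under 50 FPKM, 0.152 for the 69 between 50 and 100 FPKM and 0.150 for the 41 above 100 FPKM. The last gene inside the list had an SD of 0.1730 and values from 28.6 to 46.9 FPKM, and the first outside it had an SD of 0.1733 and values from 22.6 to 39.0 FPKM. The boundary therefore separates genes of practically equal spread.

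**Figure D1:**
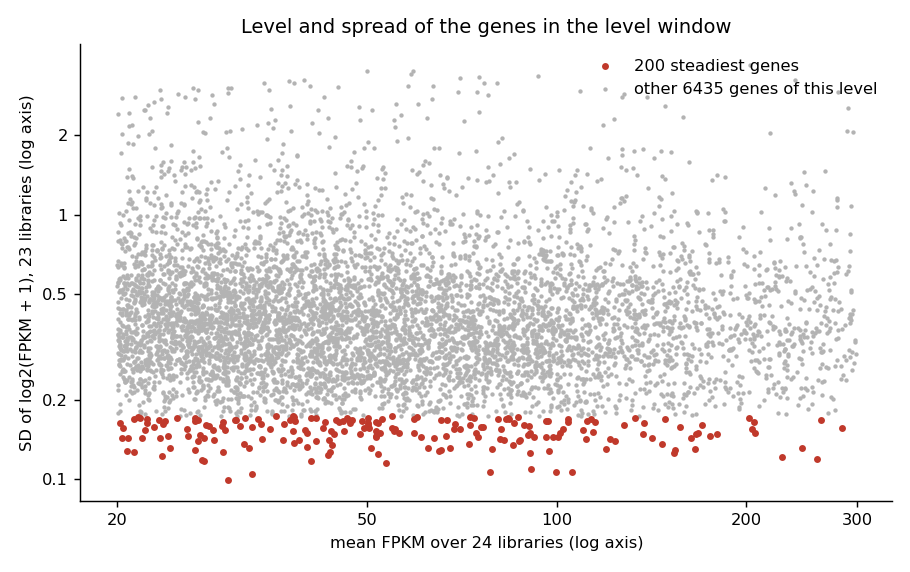
Each point is a gene of the level window, with its mean FPKM over 24 libraries on the horizontal log axis and its SD of log2(FPKM + 1) over 23 libraries on the vertical log axis; red points are the 200 steadiest genes and grey points the other 6435. The red points run along the lower edge, from 20.2 to 284 FPKM, and end at an SD of 0.173.

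The steadiest gene of all had an SD of 0.099. In hypothalamus it was at 29.9, 28.3 and 28.4 FPKM in males given testosterone and at 30.8, 29.1 and 26.9 FPKM in males given oil. Females given testosterone had 28.8, 27.0 and, in the left-out library, 24.3 FPKM, against 33.7, 31.0 and 29.4 FPKM in females given oil. In the nucleus taenia it was at 31.2, 35.4 and 35.2 FPKM in males given testosterone and at 28.9, 31.7 and 30.7 FPKM in males given oil, and at 31.1, 29.1 and 30.9 FPKM in females given testosterone against 29.6, 29.1 and 30.7 FPKM in females given oil. Testosterone and oil birds overlapped in both sexes in nucleus taenia and in males in hypothalamus. They did not overlap in female hypothalamus, where the left-out library held the lowest value of the 24.

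The third steadiest gene was expressed at about 100 FPKM and showed the same evenness in 7 of the 8 groups. Its group means, leaving aside females given testosterone in hypothalamus, ran from 95.6 ± 4.07 FPKM to 104.9 ± 3.14 FPKM (SD, n = 3 each). In the remaining group 2 libraries were at 86.5 and 101.5 FPKM and replicate 3 at 228 FPKM. The other 23 libraries ran from 86.5 to 114 FPKM, so replicate 3 lay well above all of them.

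Replicates of a group lay close together on these genes. The median SD between the 3 libraries of a group was 0.087 in female testosterone nucleus taenia, the smallest, and 0.157 in male testosterone nucleus taenia, the largest apart from the group with the left-out library. In that group, females given testosterone in hypothalamus, it was 0.390 with 3 libraries and 0.112 with replicates 1 and 2 alone. Of the variance over the 23 libraries, a median of 36.8% lay between the 8 groups for the steady genes and 34.0% for the other genes of the window, where 7 of the 22 degrees of freedom, or 31.8%, are between groups.

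No library sat far to one side on the list as a whole except the left-out one. The median difference of the 200 genes from their mean over the 23 libraries ran from -0.07 in male control nucleus taenia replicate 1 to 0.08 in male testosterone hypothalamus replicate 1, and it was 0.47 in female testosterone hypothalamus replicate 3. The 23 libraries chose genes that lie near their own mean, so their small differences are partly set by the choice. In the like comparison given below, on genes each had not chosen, they ran from -0.11 to 0.12. Single extremes were less evenly spread. Male testosterone nucleus taenia replicate 2 had the highest value of the 23 libraries for 25 genes and the lowest for 31, and male testosterone hypothalamus replicate 1 the highest for 27 and the lowest for 2. The first principal component of the steady genes held 15.5% of their variance, against 24.4% for the other genes of the window, and the correlation between a pair of steady genes over the 23 libraries had a median of 0.05.

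**Figure D2:**
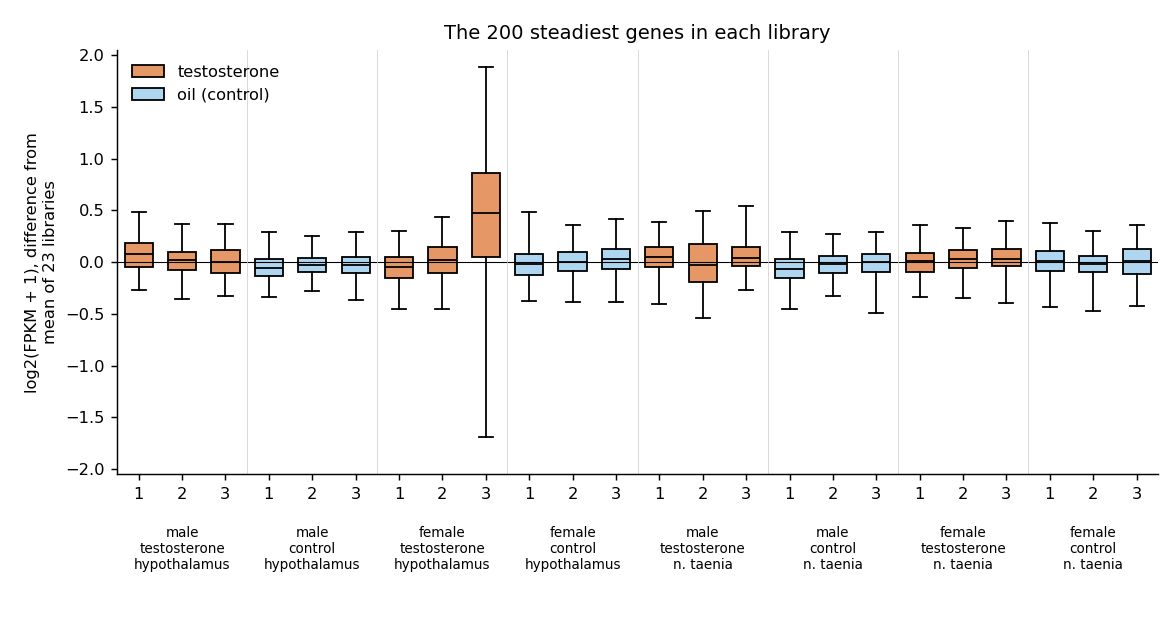
Boxes show, for each library, the differences of the 200 genes from their own mean over 23 libraries in log2(FPKM + 1); the line is the median, the box the quartiles and the whiskers the lowest and highest gene, with testosterone groups in orange and oil groups in blue. The boxes of 23 libraries lie around 0, and female testosterone hypothalamus replicate 3 has its median at 0.47 and whiskers from -1.69 to 1.88. The SD that chose the genes used the 23 libraries and not that one, so their narrow boxes are partly set by the choice.

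Because the list was chosen for small spread, its spread in the same libraries can be smaller than in libraries that had no part in the choice. This was measured by choosing 200 genes of the window in 1 region and measuring them in the other. Genes chosen in the 11 hypothalamus libraries had a median SD of 0.138 there and 0.184 in the 12 nucleus taenia libraries, where the other genes of the window had 0.407. Genes chosen in the 12 nucleus taenia libraries had a median SD of 0.146 there and 0.171 in the 11 hypothalamus libraries, against 0.359 for the others. Steadiness thus carried over from region to region with some loss: 172 and 184 of the 200 were among the steadiest 25% of the window in the region that had not chosen them, and 73 genes were chosen in both. Whether a bird gave both of its regions is not stated, so the 2 sets of libraries may share birds. Of the 200 steady genes chosen over both regions, 116 were on the hypothalamus list and 134 on the nucleus taenia list.

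Between regions the steady genes differed little, and by less without the left-out library. The difference of hypothalamus from nucleus taenia, averaged over sex and treatment, ran from -0.30 to 0.23 on the log2 scale with a median of 0.03 (12 libraries each, from limma's linear models). Without the left-out library it ran from -0.21 to 0.19 with a median of -0.01. The 95% interval of a gene's difference reached a median of 0.20 to either side, equal to 1.15-fold, and 0.16 or 1.12-fold without that library. For 143 of the 200 genes the complete interval was inside 1.25-fold, and for all 200 inside 1.5-fold. The farthest bound was 1.4999-fold, or 0.585 on the log2 scale, so all 200 fit that margin only just. Without female testosterone hypothalamus replicate 2 the farthest bound was 0.630, past 1.5-fold. With libraries of the same sex, treatment and number taken as pairs the median reach was 0.21. With the left-out library removed, 196 lay within 1.25-fold. In the other 6435 genes the median interval reached 0.38, and 754 lay within 1.25-fold.

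By limma's adjusted p at 0.05, 0 of the 200 steady genes were called between the regions, where 0% of the 13612 genes tested were called. At an unadjusted p under 0.05 there were 4 of the 200 genes, where 6.28% of all genes met that rule. Without the left-out library these counts were 0 and 4 of the 200, where 0% and 6.07% were called. The choice of the list bounds these counts and nothing is read from them. The steady gene with the largest positive difference, at rank 52 in order of SD, had a lowest value of 41.6, a median of 45.0 and a highest of 66.1 FPKM in hypothalamus, against 35.1, 39.6 and 44.5 FPKM in nucleus taenia. Its highest value came from the left-out library, and without it the highest was 50.9 FPKM, with the regions still overlapping. The log2 difference was 0.23 ± 0.17 (95% interval) with that library and 0.19 ± 0.14 without it.

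Males and females were also close. Averaged over region and treatment, the male minus female differences of the 200 genes ran from -0.28 to 0.20 with a median of -0.04, and from -0.20 to 0.19 with a median of 0.00 without the left-out library. The interval widths were those of the region comparison, 140 genes lay within 1.25-fold, and all 200 lay within 1.5-fold. The farthest bound was 1.46-fold, or 0.542 on the log2 scale. Without female testosterone hypothalamus replicate 2 it was 0.591, past 1.5-fold. With the left-out library removed, 194 lay within 1.25-fold. The fit counts the libraries of the 2 regions as independent. If birds gave both regions and their libraries deviate together, these intervals are too narrow, and the labels do not settle this. In this comparison limma called 0 of the 200 by adjusted p, where 2.55% of 13612 genes were called, and 7 of the 200 by unadjusted p under 0.05, where 12.8% were. Leaving that library out, limma again called 0 and 7 of the 200, where 3.04% and 14.1% were called. Choosing genes that vary little bears on these counts, and nothing is read from them.

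Within a region the sex difference could be held less narrowly. In nucleus taenia it ran from -0.28 to 0.21 with a median of -0.01 (6 libraries each). The interval reached a median of 0.27 to either side, or 1.21-fold, and 68 genes lay within 1.25-fold and all 200 within 1.5-fold. The farthest bound was 1.47-fold, or 0.556 on the log2 scale. Without female testosterone nucleus taenia replicate 3 it was 0.623, past 1.5-fold. Here limma called 0 of the 200 by adjusted p, where 0.989% of genes were called, and 1 by unadjusted p under 0.05, where 10.7% were. In hypothalamus the differences ran from -0.36 to 0.31, and from -0.25 to 0.21 without the left-out library. The interval reached 0.37 with all 12 libraries, or 1.29-fold, and 137 genes lay within 1.5-fold. Without the left-out library it reached 0.28, or 1.22-fold, and all 200 did. The hypothalamus calls were 0 of the 200 in limma by adjusted p, where 0% were called (0.685% without that library), and 1 of the 200 by unadjusted p under 0.05, where 9.93% were. Without that library the unadjusted count was 0, where 10.4% were called. All these counts within a region are bounded by the choice of the list, and nothing is read from them.

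The steady gene with the largest negative sex difference in nucleus taenia, at rank 125, had a lowest value of 21.2, a median of 25.9 and a highest of 29.3 FPKM in males, against 27.8, 31.1 and 35.6 FPKM in females. The ranges of the sexes overlapped by a small stretch, and the log2 difference was -0.28 ± 0.27 (95% interval). This was the largest of 200 such differences in size.

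Pooled treatment differences were small and leaned to one side. Averaged over sex and region, the difference ran from -0.23 to 0.32 with a median of 0.08. Of the 200 genes 162 were higher in testosterone birds and 38 lower, where 50.4% of all genes were higher. Without the left-out library it ran from -0.20 to 0.21 with a median of 0.04, and 136 were higher and 64 lower. The 200 genes come from the same libraries and are not replicates of the treatment, so these splits are a description. That median of 0.04 lay inside the -0.07 to 0.08 by which the median steady gene differed in single libraries of the 23. Since library totals scale all genes together, the split was also taken after other scalings of the 23 libraries. It was 127 against 73 after median-ratio scaling, 129 against 71 after quantile normalization and 164 against 36 after equal FPKM totals. Among all genes of the fit, the share higher in testosterone birds was 50.6% with FPKM as deposited and 49.1% after median-ratio scaling. It was 52.0% after quantile normalization and 56.7% after equal totals. As deposited, 136 of the 200 were higher in male hypothalamus and 141 in male nucleus taenia. In females 115 were higher in nucleus taenia, and 81 in hypothalamus without the left-out library. Over all genes the counts were 6169 of 13569, 7051 of 13551, 7254 of 13551 and 6796 of 13575, in this order. As deposited, with all 24 libraries, 125 of 200 were higher in hypothalamus and 62 of 200 in males, where 46.4% and 47.8% of all genes were. Without the left-out library the region and sex splits were less steady over the scalings. For region, 93 of 200 were higher in hypothalamus with FPKM as deposited and 111 after median-ratio scaling. The counts were 143 after quantile normalization and 183 after equal totals. Over all genes of the fit the share higher in hypothalamus was 46.7%, 50.0%, 50.0% and 65.8% on these 4 scales, so the split after equal totals moved with all genes. For sex, 101 of 200 were higher in males as deposited, 110 after median-ratio scaling, 67 after quantile normalization and 76 after equal totals, where the share of all genes higher in males was 46.1%, 47.7%, 47.0% and 42.2%.

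In size the pooled treatment effect was bounded like the others. This fit also counts the libraries of the 2 regions as independent, so shared birds could make its intervals too narrow. The interval lay within 1.25-fold for 122 of the 200 genes and within 1.5-fold for all 200, and without the left-out library 190 lay within 1.25-fold. The farthest bound with all libraries was 1.4996-fold, or 0.585 on the log2 scale, just inside that margin. Without female testosterone hypothalamus replicate 2 it was 0.632, past 1.5-fold. In this comparison limma called 0 of the 200 by adjusted p, where 0% of 13612 genes were called, and 9 by unadjusted p under 0.05, where 7.27% were. With the left-out library removed these counts were 0 and 11, where 0% and 6.54% were called. The choice for small spread bounds these counts as well, and nothing is read from them. The gene with the largest positive difference, at rank 176, had a lowest value of 67.3, a median of 78.9 and a highest of 90.3 FPKM in the 11 other testosterone libraries and 215 FPKM in the left-out one, against 60.1, 69.5 and 79.2 FPKM in the 12 oil libraries. Its groups overlapped, and the log2 difference was 0.21 ± 0.15 (95% interval) without the left-out library and 0.32 ± 0.26 with it.

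Within 1 sex and region, with 3 libraries against 3, the interval reached a median of 1.31 to 1.43-fold to either side of the estimated difference. The bound on an effect also takes in the estimate. Its farthest value was 1.65-fold in male and 1.62-fold in female nucleus taenia. In hypothalamus it was 2.09-fold in males and 2.89-fold in females, and 1.66 and 1.72-fold without the left-out library. The spread behind these intervals was pooled over the 12 libraries of a region and moderated with all genes, not taken from the 6 libraries alone. In nucleus taenia the interval reached a median of 0.39 in both sexes, or 1.31-fold, and lay within 1.5-fold for 163 genes in males and 167 in females, and within 2-fold for all 200 in both. In male nucleus taenia the differences ran from -0.26 to 0.35, and limma called 0 of the 200 by adjusted p and 0 by unadjusted p under 0.05, where 0% and 2.79% of genes were called. In female nucleus taenia they ran from -0.27 to 0.30, with 0 of the 200 by limma's adjusted p and 0 by unadjusted p, where 0% and 2.94% were. Genes chosen to vary little give few calls by that choice, so nothing is read from these counts.

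In hypothalamus the interval reached a median of 0.52, or 1.43-fold, and much of this width went with 1 library. For males the differences ran from -0.26 to 0.37, and the interval reached 0.38, or 1.30-fold, without the left-out library, although the 6 male libraries were the same. The spread is pooled over both sexes, and that library raised it. In males the interval lay within 1.5-fold for 67 of the 200 genes and within 2-fold for 197. Without that library these counts were 172 and 200. In males limma called 0 of the 200 by adjusted p and 0 by unadjusted p under 0.05, where 0% and 6.14% of genes were called. When that library was out the unadjusted count was 2, where 10.4% were called. These counts too are bounded by the choice, and nothing is read from them. The most negative of the 200 differences, at rank 160, had 60.6, 57.4 and 60.1 FPKM in males given testosterone, against 72.6, 71.0 and 69.9 FPKM in males given oil. The log2 difference was -0.26 ± 0.43 (95% interval), or ± 0.35 without the left-out library. The most positive, at rank 172, had 55.8, 61.0 and 73.7 FPKM in males given testosterone, against 45.9, 49.0 and 50.5 FPKM in males given oil, with a difference of 0.37 ± 0.53, or ± 0.36 without the left-out library. Neither gene's groups overlapped, and both were picked as the extremes of 200.

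Females given testosterone in hypothalamus are the group that holds the left-out library, and the list shows what it does to a group mean. With it the differences ran from -0.72 to 0.74 with a median of 0.15, and 150 of the 200 genes were higher in testosterone birds. Without it they ran from -0.37 to 0.35 with a median of -0.03, and 81 were higher and 119 lower. The interval lay within 1.5-fold for 46 genes with it and for 139 without it. Within 2-fold it lay for 163 genes with that library and for all 200 without it. In this comparison limma called 0 of the 200 by adjusted p and 1 by unadjusted p under 0.05, where 0% and 5.14% of genes were called. Without the library the unadjusted count was 0, where 4.21% were called. As before, the choice of the list bounds the counts and nothing is read from them.

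**Figure D3:**
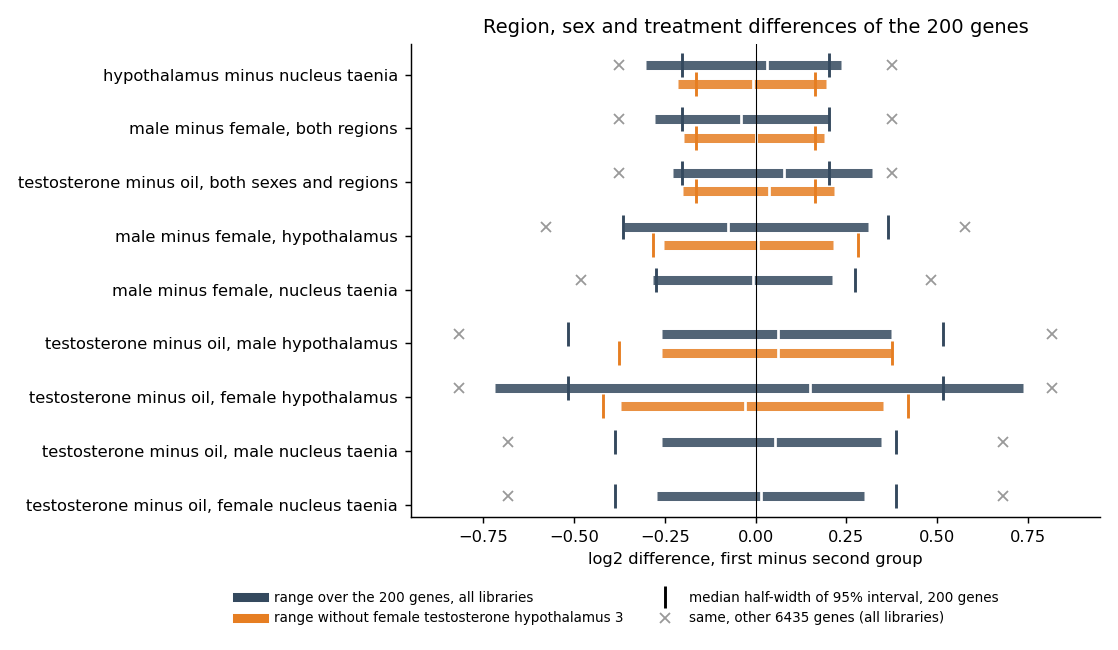
Thick lines span the lowest to the highest log2 difference of the 200 genes in each comparison, with a white mark at the median, for all libraries (dark) and without female testosterone hypothalamus replicate 3 (orange); vertical marks give the median reach of the 95% interval around 0, and crosses the same for the other 6435 genes. Most lines stay within 0.4 of 0, and the female hypothalamus treatment line reaches -0.72 and 0.74 with that library and -0.37 and 0.35 without it.

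The same intervals were taken for genes that the libraries tested had not chosen. For the 200 genes chosen in hypothalamus, the sex difference in nucleus taenia had a median interval of 0.30 to either side, 172 lay within 1.5-fold and all 200 within 2-fold. By limma's adjusted p 0 of these 200 were called, where 0.989% of genes were, and 8 by unadjusted p under 0.05, where 10.7% were. For treatment in nucleus taenia the interval reached 0.42, with 125 genes in males and 128 in females within 1.5-fold and 194 and 192 within 2-fold. The farthest bounds were 2.41-fold in males and 2.18-fold in females. Limma's unadjusted p was under 0.05 for 4 genes in males and 1 in females, where 2.79% and 2.94% of all genes met that rule. For the 200 genes chosen in nucleus taenia, treatment in hypothalamus had a median interval of 0.53 in both sexes, with 183 in males and 158 in females within 2-fold. Without the left-out library the numbers were 200 and 197. The farthest bounds were 3.06-fold in males and 7.85-fold in females, and 1.88 and 2.22-fold without that library. Limma's unadjusted p was under 0.05 for 0 and 2 genes, where 6.14% and 5.14% of all genes were. Without that library the counts were 7 and 3, where 10.4% and 4.21% were. For sex in hypothalamus the interval of these genes reached 0.38, with 129 within 1.5-fold and a farthest bound of 3.62-fold. Without the left-out library it reached 0.29, with 192 within 1.5-fold and a farthest bound of 1.72-fold. Limma's unadjusted p was under 0.05 for 3 genes, where 9.93% of all genes were, and for 1 without that library, where 10.4% were. In each of these comparisons the median interval was wider, and fewer genes lay within 1.5-fold, than for the list itself.

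Female testosterone hypothalamus replicate 3 took no part in the SD that chose the list, and it lay outside the range of the other 23 libraries for 150 of the 200 genes. It was above all 23 for 121 genes and below all 23 for 29, and 50 were within their range. Its mean FPKM had entered the level window, but 199 of the 200 genes also meet the window over the 23 libraries alone. Among the other 6435 genes of the window it was above the range for 1687 and below it for 2001, leaving 42.7% within. The share within was 25% for the steady genes, whose range is narrower by their choice.

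The differences of this library were large beside the steadiness of the list. They ran from -1.69 to 1.88 on the log2 scale with quartiles of 0.04 and 0.86. It was more than 1.5-fold above the mean of the other libraries for 93 genes and more than 1.5-fold below for 17, and past 2-fold for 32 above and 10 below. The SD of its differences over the 200 genes was 0.668, against 0.102 to 0.240 in the other libraries. The ranking of the genes by level was also less well kept: across the 200 genes, its Spearman correlation with the mean of the others was 0.858, where the other libraries had 0.963 to 0.993. The other libraries helped to choose these genes, so their small SDs and high correlations are partly set by the choice. The correlation was not taken in a like comparison.

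**Figure D4:**
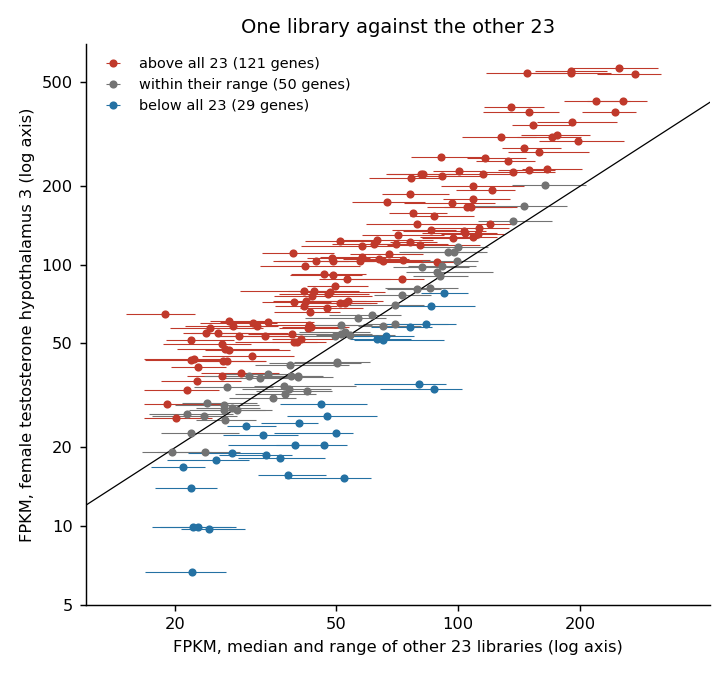
Each point is a steady gene, with its FPKM in female testosterone hypothalamus replicate 3 on the vertical log axis and the median of the other 23 libraries, with a line from their lowest to their highest, on the horizontal log axis; the diagonal marks equal values. Red points (121 genes) are above all 23 libraries, blue points (29) below all 23 and grey points (50) within their range.

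Among the genes of highest level the shift went one way. With FPKM as deposited, all 41 steady genes with a mean of 100 to 300 FPKM were higher in this library than the mean of the others, by a median of 0.74 and at least 0.10 on the log2 scale. That mean includes the library itself. By the mean of the other 23, all 39 genes above 100 FPKM were higher, by the same median of 0.74, and the medians were 0.27 for the 68 genes between 50 and 100 FPKM and 0.40 for the 93 below 50 FPKM. Across the 200 genes the Spearman correlation of the difference with the level was 0.243.

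ENSTGUG00000006702 stood farthest above, at 541 FPKM in female testosterone hypothalamus replicate 3, against a lowest value of 117, a median of 148 and a highest of 184 FPKM in the other 23 libraries. ENSTGUG00000004816 was at 64.7 FPKM in it, against 15.1, 18.9 and 22.4 FPKM. This gene is the 1 of the 200 that is in the level window only through the left-out library: its mean was 20.8 FPKM over 24 libraries and 18.9 FPKM over 23. The log2 differences from the mean of the 23 were 1.88 and 1.73, or 3.68 and 3.31-fold.

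ENSTGUG00000007414 stood farthest below, at 15.2 FPKM in the left-out library, against 37.4, 52.3 and 61.0 FPKM as the lowest, median and highest of the other 23. ENSTGUG00000000099 was at 6.67 FPKM in it, against 16.8, 21.98 and 26.7 FPKM. Their log2 differences were -1.69 and -1.59. For all 4 genes the left-out library was well clear of the range of the other 23. They were picked as the extremes of this library, so their values describe how far it reached.

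Which way the list as a whole shifts depends on the scale. With FPKM as deposited the median gene was higher by 0.47 in this library, and 121 genes were above the range against 29 below. After rescaling all libraries to equal FPKM totals, with the list as it was, the median gene was lower by 0.15, with 36 above and 71 below. This library's total was 1.56 times the median total. Its median-ratio factor, taken over genes above 0 FPKM in all 24 libraries, was 0.02 on the log2 scale. That was within the -0.05 to 0.07 of the others. With the list as it was, the SD of this library's differences over the genes was 0.657 after equal totals and 0.668 as deposited.

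The shift was shared by neighbouring ranks. For genes ranked 201 to 400 by SD the median difference of this library was 0.52, and for ranks 401 to 800 it was 0.48. It was 0.26 for ranks 801 to 1600, 0.07 for ranks 1601 to 3200 and -0.49 for the least steady 3435 genes. The SD of its differences grew along the same order, at 0.668 for the 200 genes and 0.999, 1.04, 1.21, 1.48 and 1.89 for the following sets.

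The other libraries helped to choose the list and so sit closer to it. For a like comparison each was left out of the choice in turn, together with female testosterone hypothalamus replicate 3, and scored on the 200 genes then chosen. Each lay outside the range of the remaining 22 for 5 to 106 genes, with a median of 21, where that library had 150. The SD of the differences was 0.112 to 0.419, and the median difference -0.11 to 0.12. Male testosterone nucleus taenia replicate 2 held the highest of these SDs, with 65 genes below and 41 above the range, and the next library had 58 outside. With the left-out library kept in the choice the other libraries were outside for 4 to 93 genes.

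**Figure D5:**
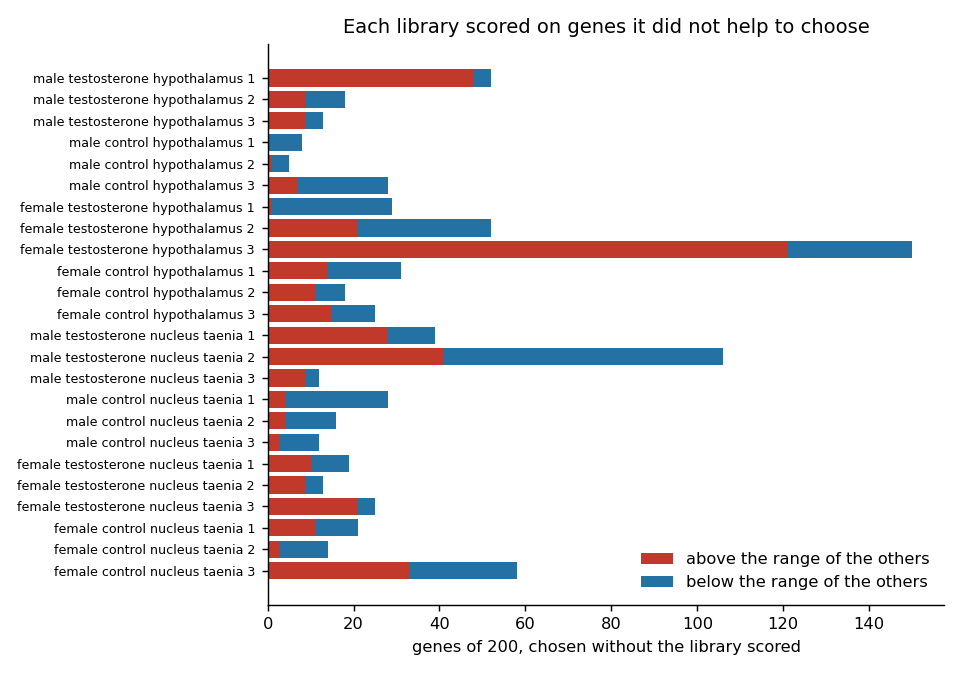
Bars count, for each library, how many of 200 steady genes chosen without it lay above (red) or below (blue) the range of the libraries that chose them. Female testosterone hypothalamus replicate 3 has 121 above and 29 below, male testosterone nucleus taenia replicate 2 has 41 above and 65 below, and the other 22 have 5 to 58 in all.

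Several values of the whole library can be set beside its position on the list. Its median FPKM over all genes was 7.03, below the 10.3 to 12.02 of the other 23. Its depth of 0.785 was within the 0.598 to 1.39 of the others, its total was the highest of the 24, and the 200 genes made up 1.5% of its total FPKM, within the 1.19% to 1.70% of the others. The part of these in the result was not tested.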

How the data were processed

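Expression was measured by stranded mRNA sequencing in 24 libraries, per the labels' protocols; 24 methylation samples were not analysed here. The authors deposited FPKM per gene. The tools named per the submitters' processing notes are Cufflinks 2.2.1, TopHat2 2.1.1 and cutadapt 1.9.1, with no order given, and the build is not given in the sources used here. Of the table's columns 0 could not be tied to a sample. The list, its rule and the tests were chosen with earlier results of these data known. The SD was taken on log2(FPKM + 1). Differences and 95% intervals came from limma 3.58.1 in R 4.3.3, with 1 mean per group, variances moderated with a trend, genes of mean FPKM at least 1, and Benjamini-Hochberg adjustment over all genes tested at 0.05. Pooled comparisons used 24 libraries and regional ones 12. Since values are relative, a few abundant genes can shift all others. Gene symbols could not be matched, so the only identifiers named are the 2 farthest above and the 2 farthest below in the left-out library. Replicate numbers are shared between groups. Libraries of the same number deviated together from their groups, with correlations above 0.1, in every pair for treatment in female nucleus taenia (0.151 to 0.232). The same held for region in female testosterone birds (0.218 to 0.333) and, most strongly, in male control birds (0.532 to 0.669). The labels give the numbers no meaning. Only the fit of the pooled sex comparison was tested on simulated data. Its genes and libraries were independent, and its planted differences were larger than those of the list. That test does not cover shared birds, a library that stands apart or differences as small as these. Each p-value sets a difference against the moderated spread within groups and takes the libraries as independent. Alternatives were other pseudocounts, filters, scalings, variance estimates and sets of libraries. Figures were drawn with matplotlib 3.10.9.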

Additional observations from a re-analysis of the deposited data

Results flagged for a closer look

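Each set of 6 libraries of a sex and region was checked for a single library far from its 5 companions. Over 7 measures this made 28 checks, of which 7 found one. About 1 in 20 would by chance, but that rate does not apply to this count. Some measures were genes picked for the left-out library's values, and the other libraries helped to choose the list. Several measures of the same library are also not independent. Female testosterone hypothalamus replicate 3 lay far from the other 5 in its median difference on the steady genes (0.47, next 0.03), in the SD of its differences (0.668, next 0.188), in ENSTGUG00000006702 (541 FPKM, next 166), in ENSTGUG00000004816 (64.7 FPKM, next 21.6) and in ENSTGUG00000000099 (6.67 FPKM, next 20.5). These genes were picked for that library's values, so they add nothing to it, and ENSTGUG00000004816 is in the level window only through that library (18.9 FPKM over the other 23). Replicate 2 of male testosterone nucleus taenia lay far from the others in the SD of its differences (0.240, next 0.150). ENSTGUG00000006702 was also low, at 128 FPKM, in replicate 3 of male testosterone hypothalamus, next 145.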

How the results depend on the processing

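The list depended on the scale of the libraries. Of the 200 genes, 67 were chosen again after equal FPKM totals, an alternative added after the data were seen, 113 with all 24 libraries in the SD, 110 with a mean of 50 to 300 FPKM, and 147 to 192 when 1 of the 23 libraries was left out, fewest when that was replicate 2 of male testosterone nucleus taenia. The median difference of female testosterone hypothalamus replicate 3 was 0.39 after median-ratio scaling and 0.24 after quantile normalization. After equal totals it was -0.37 with the list chosen anew and -0.15 with the list as it was. The SD of its differences was 0.796 after median-ratio scaling and 0.975 after equal totals, each with the list chosen anew. With the list as it was, the SD after equal totals was 0.657. Without 1 other library the median difference was 0.40 to 0.62, the SD 0.640 to 0.864 and the genes outside the range 148 to 155. The cause of these shifts was not tested. With that library in, the median SD of genes measured in the region that did not choose them was 0.207 in nucleus taenia and 0.254 in hypothalamus.

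Of 191 counts of steady genes called under the alternatives, 190 were 0. Apart from the fits without female testosterone hypothalamus replicate 3, the share of all genes called was not taken under the alternatives. In the main fits that share was 0% for region, for sex in hypothalamus and for every treatment comparison. The list was also chosen to vary little in these libraries, so nothing is read from the counts of 0. The exception was 1 gene for sex in both regions with each gene's own variance. The share of all genes called in that fit was not taken, so nothing is read from this count. Without moderation of the variances the median reach of the interval in nucleus taenia was 0.19 for sex and 0.27 for treatment. In a fit that takes the number as a replicate block it was 0.30 for sex and 0.43 for treatment in nucleus taenia and 0.21 for region, and the block changed no call. In fits of the 6 libraries of a treatment comparison alone it was 0.74 in female hypothalamus and 0.55 in male nucleus taenia. With the replicate block in such a fit it was 0.95 in female hypothalamus, 0.72 in male nucleus taenia and 0.45 in female nucleus taenia. Leaving out 1 library gave 0.16 to 0.22 in the pooled comparisons, 0.28 to 0.42 for sex in hypothalamus, 0.26 to 0.32 for sex in nucleus taenia, 0.61 to 0.63 for treatment in male hypothalamus when 1 of its 6 male libraries was out (0.38 without female testosterone hypothalamus replicate 3), 0.42 to 0.61 in female hypothalamus, 0.39 to 0.47 in male nucleus taenia and 0.44 to 0.47 in female nucleus taenia. Here a group can be left with 2 libraries, which are assumed to vary like the others. Read depth is unknown, so counting error was not separated from other spread.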
